A study of Homo sapiens with 6 samples.

Results

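The genes described here encode the proteins of the cytosolic ribosome, and they were followed by RNA-Seq in SW480, a line of human colorectal cancer cells, after knockdown of PCYT2. Members were the protein-coding genes of GENCODE release 29 whose symbol is RPL or RPS and a number, with an optional A, X or L, together with RPLP0, RPLP1, RPLP2 and RPSA. Kinases named RPS6K, 3 readthrough symbols with a hyphen, pseudogenes and Y-linked copies were left out. The rule used no measured value and gave 82 members among the 19655 genes of the series, 50 of the large (60S) and 32 of the small (40S) subunit. The tables listed 80 of them, and RPL10L and RPL39L were not listed. Of the 80, 78 had a mean of at least 0.5 FPKM and entered the tests, 47 of the large and 31 of the small subunit. FPKM is the number of fragments per kilobase of transcript, scaled to the size of the library.

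The study asked what knockdown of PCYT2, an enzyme of phosphatidylethanolamine synthesis, does to colorectal cancer cells. Each of 3 groups had 2 libraries. All cells carried a lentiviral short hairpin RNA and were pools selected with puromycin. The hairpin was nontargeting in shNT and was directed against PCYT2 in shPcyt2-1 and shPcyt2-2. Nothing in the labels says that the 2 libraries of a group came from separate cultures, so the p-values measure the spread between these libraries, which may be technical.

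The hairpins' target, PCYT2 (ENSG00000185813), lies on chromosome 17 of GRCh38 between 81900965 and 81911464. Its level was 11.6 and 13.8 FPKM with shNT, 7.11 and 7.36 FPKM with shPcyt2-1, and 6.71 and 6.18 FPKM with shPcyt2-2. All 4 knockdown libraries were lower than both shNT libraries. In limma its log2 difference from shNT was -0.73 for the first hairpin (adjusted p = 0.00205) and -0.88 for the second (adjusted p = 0.00261).

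The cell type in the labels was set beside its markers. KRT8 and KRT18, keratins of simple epithelia, were between 2396 and 3861 FPKM in every library, and EPCAM, an epithelial adhesion protein, was between 258 and 312 FPKM. KRT20, a marker of differentiated intestinal epithelium, was at or near 0 in every library, with 0.0950 FPKM at most. Of the other epithelial markers, VIL1 was between 38.8 and 44.7, CDH1 between 14.7 and 17.3, CDX2 between 9.88 and 16.9, and CDH17 between 0.968 and 1.89 FPKM. The summed level of the 8 epithelial markers was 7195 and 7677 FPKM with shNT, 7355 and 7407 FPKM with shPcyt2-1, and 5518 and 5746 FPKM with shPcyt2-2, and most of that sum was KRT8 and KRT18. Of 5 leukocyte markers 3 were listed, with a sum of at most 1.24 FPKM, and CD14 was the most abundant of them. The 5 fibroblast markers summed to at most 2.49 FPKM, with COL1A1 as the most abundant, and the 4 endothelial markers to at most 0.769 FPKM, with CDH5 as the most abundant. The leukocyte markers PTPRC and ITGAM were not listed. No listed marker of the 3 other cell types was over 1.68 FPKM, the highest level of COL1A1, a range that CDH17 shares.

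A ribosome is built from ribosomal RNA and 1 copy of nearly every ribosomal protein, so cells make these proteins in matched amounts. The large subunit joins amino acids, and the small subunit reads the messenger RNA. Messenger RNAs of ribosomal proteins are among the most abundant of a growing cell. Most of them begin with a C followed by a run of C and U, the terminal oligopyrimidine (TOP) tract, through which mTOR and LARP1 set their translation and stability.

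The start of the gene carries that tract, so the 30 bases around the annotated start are shown for members whose level moved in opposite directions. They were read 5′ to 3′ from RefSeq promoters (GRCh38.p14), and 65 of the 82 members had an entry. Capitals mark a C followed by at least 4 C or T that begins within 5 bases of the annotated start, on the strand of the gene. The first 4 belong to members that were higher with shPcyt2-1 and the last 4 to members that were lower.
RPS12 (chr6:132814554-132814583, plus strand): gcgtgcggatgaggCCTCTTTCCCTgccgc
RPS21 (chr20:62387088-62387117, plus strand): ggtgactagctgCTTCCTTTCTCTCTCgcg
RPS10 (chr6:34426055-34426084, minus strand): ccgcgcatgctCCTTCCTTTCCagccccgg
RPS26 (chr12:56041903-56041932, plus strand): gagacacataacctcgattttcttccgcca
RPL12 (chr9:127451392-127451421, minus strand): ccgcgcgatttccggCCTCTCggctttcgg
RPL3 (chr22:39319609-39319638, minus strand): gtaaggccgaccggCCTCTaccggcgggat
RPL35 (chr9:124861943-124861972, minus strand): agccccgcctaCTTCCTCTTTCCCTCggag
RPL17 (chr18:49492451-49492480, minus strand): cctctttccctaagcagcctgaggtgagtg
A marked tract stood in both sets. In 1 gene of each set, RPS26 and RPL17, no such run began within 5 bases of the annotated start, though such runs can be read farther from the start in both windows. By the same letters, 51 of the 65 members (78.5%) had a tract, against 21.1% of all 27305 promoters and 22.2% of those of protein-coding genes. In the promoter, from 250 bases before to 50 after the start, CGGAAG on either strand, the letters of a GABP site, was found in 63.1% of members, 19.9% of all promoters and 25.9% of the 14896 promoters of protein-coding genes. AAGATGG on either strand, the letters of a YY1 site, was found in 12.3% of members, 6.06% of all and 6.48% of coding promoters. TATAAA on either strand was found in 9.23% of members, 11.9% of all and 9.37% of coding promoters. A match is a description of the letters and not a measured binding site.

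Ribosomal protein genes made up between 21.1% and 23.2% of all listed FPKM in the 6 libraries. Of the 13 mitochondrial protein-coding genes of GENCODE 0 were listed, so shares and ranks hold among the listed genes only. The share was 23.0% and 21.7% with shNT, 21.1% and 21.3% with shPcyt2-1, and 22.3% and 23.2% with shPcyt2-2. The shPcyt2-1 libraries were the lowest, while shNT and shPcyt2-2 overlapped. The group means were 22.3% ± 0.952, 21.2% ± 0.138 and 22.7% ± 0.616 (SD, n = 2), and the sum was given no test. In shNT, members took 17 of the 30 and 58 of the 100 highest places among all listed genes. Of the 78, 74 were over 100 FPKM and 36 over 1000 FPKM, with a median of 958 FPKM.

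Among the members with the highest means in shNT were RPL13A, RPS2 and RPLP0. RPL13A, a large subunit protein that also takes part in inflammation-gated translational silencing, had the highest mean in shNT of any listed gene. It was at 5226 and 5161 FPKM with shNT, 4470 and 4566 FPKM with shPcyt2-1, and 4669 and 4983 FPKM with shPcyt2-2. Both hairpins lay below shNT without overlap, and with shPcyt2-1 the fall of 0.20 on the log2 scale passed the test, as given below. RPS2, a protein of the messenger RNA entry site, was at 3478 and 3494 FPKM with shNT, 2974 and 3080 FPKM with shPcyt2-1, and 2953 and 3236 FPKM with shPcyt2-2. RPLP0, the base of the stalk that binds elongation factors, stayed between 2913 and 3120 FPKM. With shNT both RPS2 libraries lay above both RPLP0 libraries, and with either hairpin the 2 genes overlapped. The other stalk proteins, RPLP1 and RPLP2, were at lower levels, between 1314 and 1475 FPKM and between 1228 and 1413 FPKM.

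The order of the 78 genes was nearly the same in every library, with Spearman's rho between pairs of libraries from 0.977 to 0.998 across genes, which are not independent replicates. The ratio of the highest to the lowest library had a median of 1.19 over the 78 members, 1.43 over all 12756 tested genes and 1.24 over the 507 other genes with a mean of at least 100 FPKM. It was under 1.2 for 41 members and over 1.5 for 3, among them RPL17 (2.06) and RPS25 (1.52). RPS25 shares its values with another identifier. The steadiest members were RPL27A (1.05), RPL18 (1.06), RPS6 (1.07) and RPLP0 (1.07). RPS6, the substrate of the S6 kinases, was between 957 and 1021 FPKM in all 6 libraries.

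**Figure D1:**
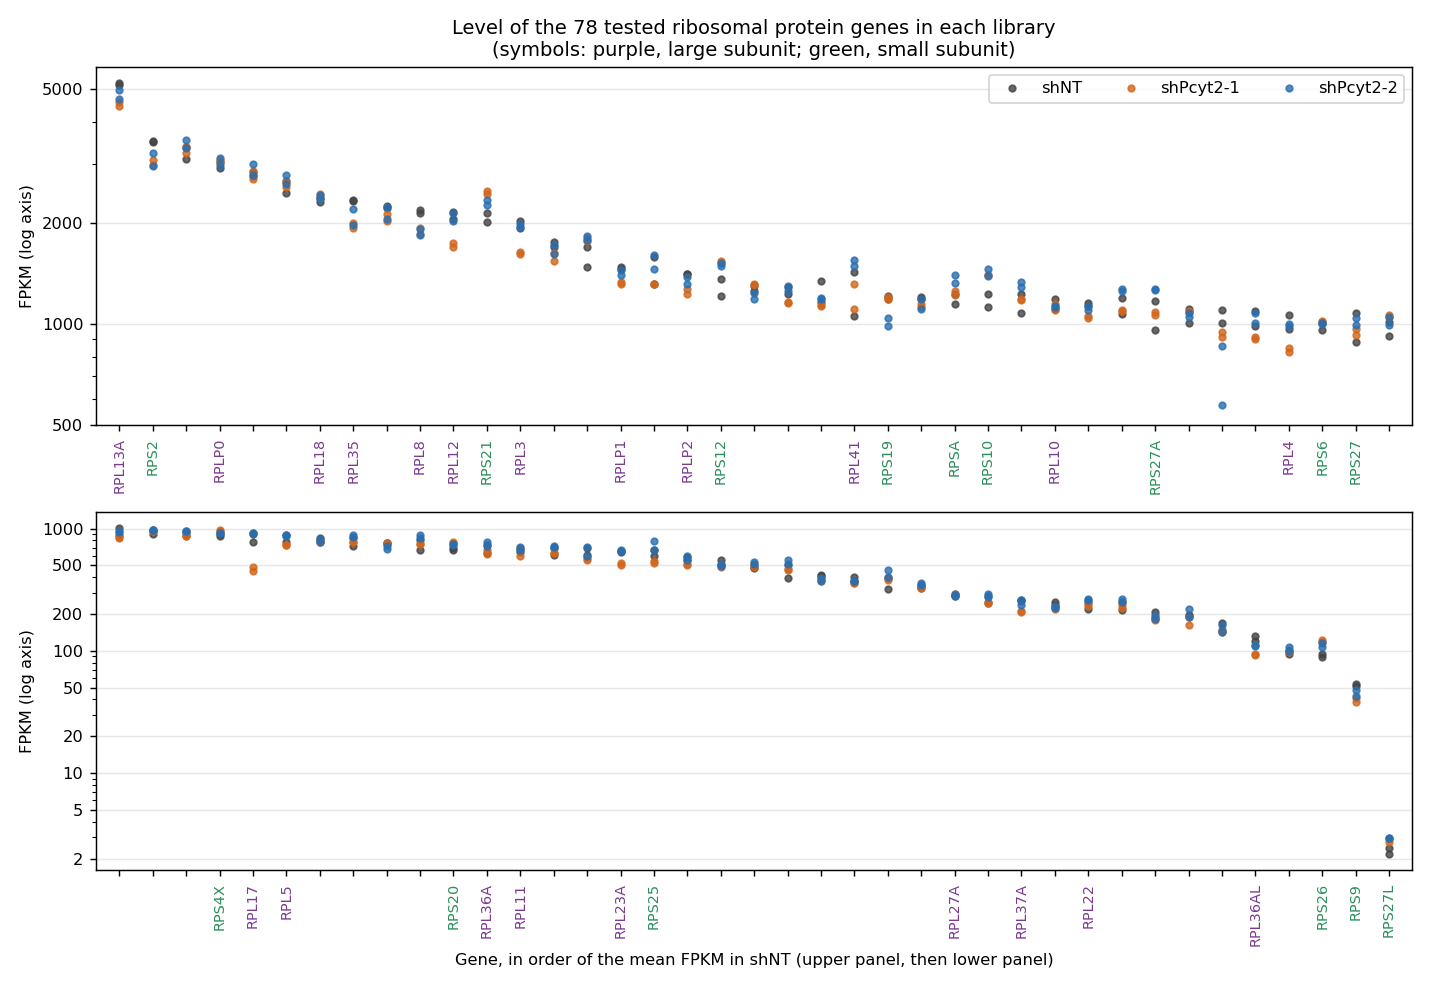
Level of the 78 tested ribosomal protein genes in FPKM on a log axis, in order of their mean in shNT and continued in the lower panel, with 1 point for each of the 6 libraries. Most points of a gene fall together, RPL13A is the highest in all libraries, and RPL17 in shPcyt2-1 falls below its other libraries. Symbols are shown for the genes named in the text.

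Copies of a member encoded by a gene of their own were below that member in every library. RPL3L, the striated muscle form of RPL3, was between 0.183 and 0.314 FPKM, while RPL3 was between 1612 and 2029 FPKM. RPS27L, a p53-responsive copy of RPS27, was between 2.17 and 2.96 FPKM, and RPS27 between 887 and 1076 FPKM. RPL36AL, a widely expressed copy of RPL36A, was between 93.3 and 134 FPKM, and RPL36A between 626 and 772 FPKM. RPS18 was listed at 0.237 FPKM or less. Since 6 identifiers carried the same RPS18 values in every library, this is not a usable level of a protein that every ribosome holds. RPS9 was between 38.1 and 53.5 FPKM, and 10 identifiers carried its values, so its level is uncertain for the same reason. GENCODE lists 1132 pseudogenes of the members, 11 of which were listed in the tables, and reads from such copies cannot be told apart from the gene where the sequence is the same. RPL13AP5 was the most abundant of them, between 235 and 269 FPKM.

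With shPcyt2-1, the counts of calls differed between the subunits. Of the 47 large subunit genes 0 rose and 11 fell, while of the 31 small subunit genes 5 rose and 2 fell (limma, adjusted p under 0.05 over all 12756 genes). The median log2 difference from shNT was -0.10 over the large subunit, 0.02 over the small subunit and 0.07 over all tested genes. With median-ratio scaling, which brings the median of all genes to 0.00, the small subunit median was -0.06, with 1 higher and 2 lower, and the large subunit median -0.18, with 0 higher and 8 lower. After correction for GC content and transcript length, 3 small subunit genes were higher and 5 lower (median -0.05), and 0 large subunit genes were higher and 16 lower (median -0.14). Over all tested genes, 11.15% were higher and 13.8% lower with median-ratio scaling, and 13.8% and 13.2% after that correction. In all, 18 of the 78 members (23.1%) were called, against 26.7% of all tested genes and 38.7% of the 507 other genes with a mean of at least 100 FPKM. In one direction, 6.41% of members rose against 16.5% of all genes, and 16.7% fell against 10.1%. Of the 507 other genes at 100 FPKM or more, 22.3% rose and 16.4% fell, so that the share of members that fell was close to that of other abundant genes.

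The ratio of the summed FPKM of large to small subunit genes was 1.44 and 1.45 with shNT, 1.315 in both shPcyt2-1 libraries, and 1.40 and 1.41 with shPcyt2-2. The 3 groups did not overlap. The small subunit sum holds RPS18 and RPS9 at their listed levels, which are not reliable, so the size of the ratio is uncertain. The group means were 1.45 ± 0.00878, 1.315 ± 0.000119 and 1.40 ± 0.00493 (SD, n = 2), with no test. Without RPL17, the gene with the largest change, they were 1.42, 1.30 and 1.38, and without the 5 most abundant members 1.40, 1.25 and 1.35. The small subunit median minus the large subunit median was 0.12 with shPcyt2-1 and 0.06 with shPcyt2-2, and it stayed between 0.12 and 0.14 and between 0.05 and 0.10 when any 1 library was left out. After correction for GC content and transcript length it was 0.09 and 0.06. FPKM are shares of a library, so a lower value cannot be told apart from a higher amount of other RNA, and in bulk RNA fewer cells of a type and less RNA per cell cannot be told apart.

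**Figure D2:**
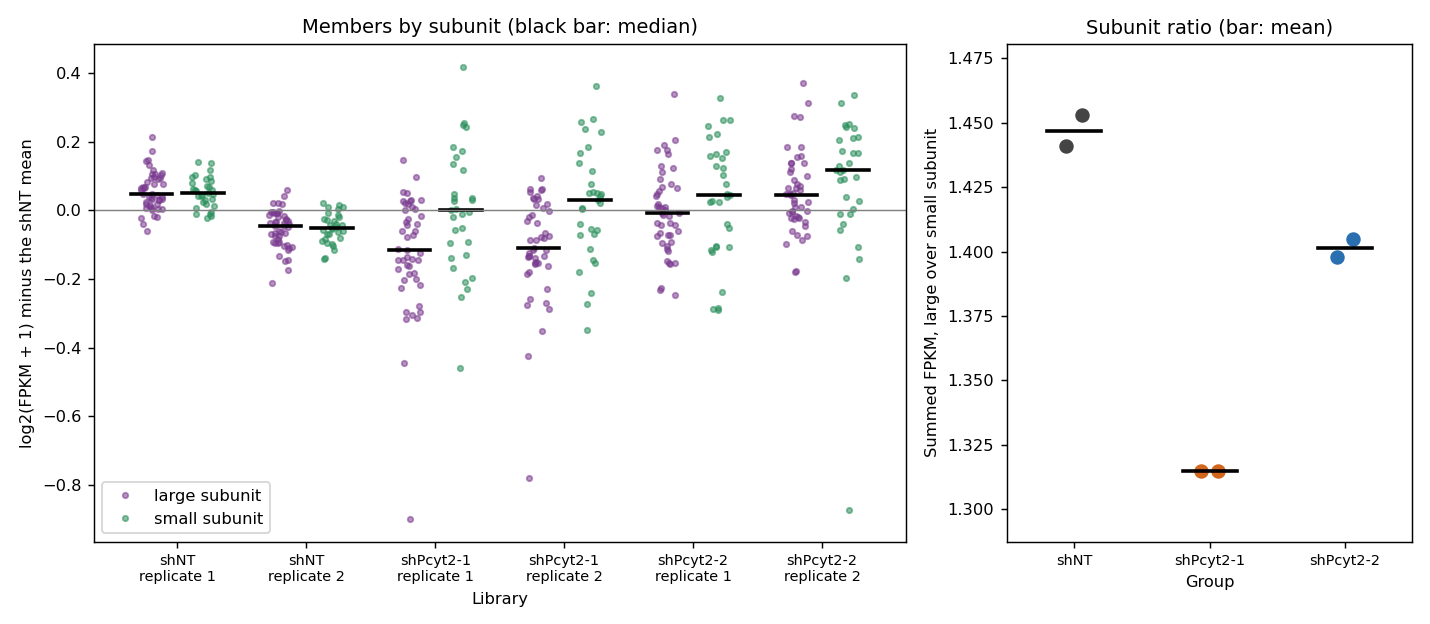
Left, the log2(FPKM + 1) of each tested member minus its shNT mean, by library and subunit, with the median as a black bar. Right, the summed FPKM of large over small subunit genes in each library, on an axis that does not start at 0, with the group mean as a bar. The large subunit median lies below the small subunit median in all 4 knockdown libraries, and the ratio is lowest in shPcyt2-1 (1.315).

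RPL17, a protein that lines the exit of the tunnel through which new chains leave the large subunit, had the largest change of any member. It was at 910.3 and 774 FPKM with shNT, 449 and 488 FPKM with shPcyt2-1, and 918 and 924 FPKM with shPcyt2-2. Both shPcyt2-1 libraries lay far below the other 4, and the shPcyt2-2 libraries lay just above shNT. The log2 difference from shNT with shPcyt2-1 was -0.84 (SE 0.078, limma adjusted p = 0.000477), a fold of 0.559. RPL17 (ENSG00000265681) lies on the minus strand of chromosome 18 of GRCh38, from 49488453 to 49492523, and overlaps the readthrough gene RPL17-C18orf32. That gene was listed at 0.524 and 0 FPKM with shNT, 3.80 and 0 FPKM with shPcyt2-1, and 5.42 and 8.13 FPKM with shPcyt2-2. The share of RPL17 reads assigned to it was not tested, and its level was small beside that of RPL17 in all 6 libraries.

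RPL23A, which sits beside the same exit and contacts the signal recognition particle, was at 653 and 640.1 FPKM with shNT, 518.5 and 506 FPKM with shPcyt2-1, and 653 and 668 FPKM with shPcyt2-2. The shPcyt2-1 libraries were below the other 4, and the log2 difference from shNT was -0.34 (SE 0.050, limma adjusted p = 0.00278). RPL36AL was at 134 and 121.5 FPKM with shNT, 93.3 and 94.7 FPKM with shPcyt2-1, and 109 and 112 FPKM with shPcyt2-2. All 4 knockdown libraries were below shNT, and with shPcyt2-1 the log2 difference was -0.43 (SE 0.063, limma adjusted p = 0.00263). RPL37A fell from 258.5 and 257 FPKM to 208.5 and 211 FPKM (log2 difference -0.30, SE 0.059, limma adjusted p = 0.00835). These 4 genes and RPS9, at -0.40 (SE 0.074, limma adjusted p = 0.00597), were the 5 largest falls. The calls of RPL37A and RPS9 were lost without shPcyt2-1 replicate 1, while those of RPL17, RPL23A and RPL36AL passed without any 1 library.

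The other large subunit genes that fell with shPcyt2-1 were RPL12, RPL3, RPL4, RPL35, RPL13A, RPL8 and RPLP2, with log2 differences between -0.29 and -0.18. RPL12, a protein of the stalk base, was at 2159 and 2059 FPKM with shNT and 1697 and 1747 FPKM with shPcyt2-1. RPL3, which reaches toward the peptidyl transferase center, was at 2029 and 1928 FPKM with shNT and 1612 and 1635 FPKM with shPcyt2-1. Neither gene's groups overlapped. RPLP2, the stalk protein, was at 1413 and 1409 FPKM with shNT and 1228 and 1269 FPKM with shPcyt2-1 (log2 difference -0.18, SE 0.051, limma adjusted p = 0.0322). Its call was lost without shNT replicate 2 or either shPcyt2-1 library, with median-ratio scaling and after correction for GC content and transcript length, where the difference was -0.10. RPS2 fell by 0.20 on the log2 scale (limma adjusted p = 0.0290), the only small subunit gene besides RPS9 to do so.

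All 5 members that rose with shPcyt2-1 were small subunit genes. RPS26, a protein at the messenger RNA exit whose loss causes Diamond-Blackfan anemia, was at 94.9 and 88.5 FPKM with shNT, 123 and 118 FPKM with shPcyt2-1, and 107 and 116 FPKM with shPcyt2-2. Both hairpins lay above shNT in each library, and the log2 difference with shPcyt2-1 was 0.39 (SE 0.066, limma adjusted p = 0.00447). RPS12, a protein of the beak of the small subunit, was at 1361 and 1210 FPKM with shNT, 1520 and 1544 FPKM with shPcyt2-1, and 1488 and 1518 FPKM with shPcyt2-2. It was 0.25 higher on the log2 scale with shPcyt2-1 (SE 0.062, limma adjusted p = 0.0175). RPS10, a beak protein that is ubiquitinated when ribosomes collide, was at 1231 and 1120 FPKM with shNT, 1395 and 1404 FPKM with shPcyt2-1, and 1392 and 1460 FPKM with shPcyt2-2. The log2 difference with shPcyt2-1 was 0.25 (SE 0.059, limma adjusted p = 0.0152), and again no knockdown library overlapped with shNT.

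RPS21 was at 2144 and 2018 FPKM with shNT, 2483 and 2437 FPKM with shPcyt2-1, and 2267 and 2347 FPKM with shPcyt2-2, and was 0.24 higher on the log2 scale with shPcyt2-1 (SE 0.052, limma adjusted p = 0.0114). RPS20, a protein of the head of the small subunit, was at 698 and 668 FPKM with shNT and 770.1 and 766 FPKM with shPcyt2-1, 0.17 higher on the log2 scale (SE 0.050, limma adjusted p = 0.0370). With median-ratio scaling, 11.15% of all tested genes rose and 13.8% fell. After correction for GC content and transcript length, 13.8% rose and 13.2% fell. Among the members, scaling decided part of the counts: with median-ratio scaling 1 member rose (RPS26) and 10 fell, and after that correction 3 rose and 21 fell. Without shPcyt2-1 replicate 1 they were 1 and 3, without shPcyt2-1 replicate 2 they were 1 and 8, and without shNT replicate 1 they were 12 and 13, with 3 large and 9 small subunit genes among the 12. RPS26 passed without any 1 library, and RPS12, RPS10 and RPS21 were lost without either shPcyt2-1 library. RPS20 was lost without any 1 library other than shNT replicate 1 and under 11 of the 16 alternatives, with a difference as low as 0.06.

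**Figure D3:**
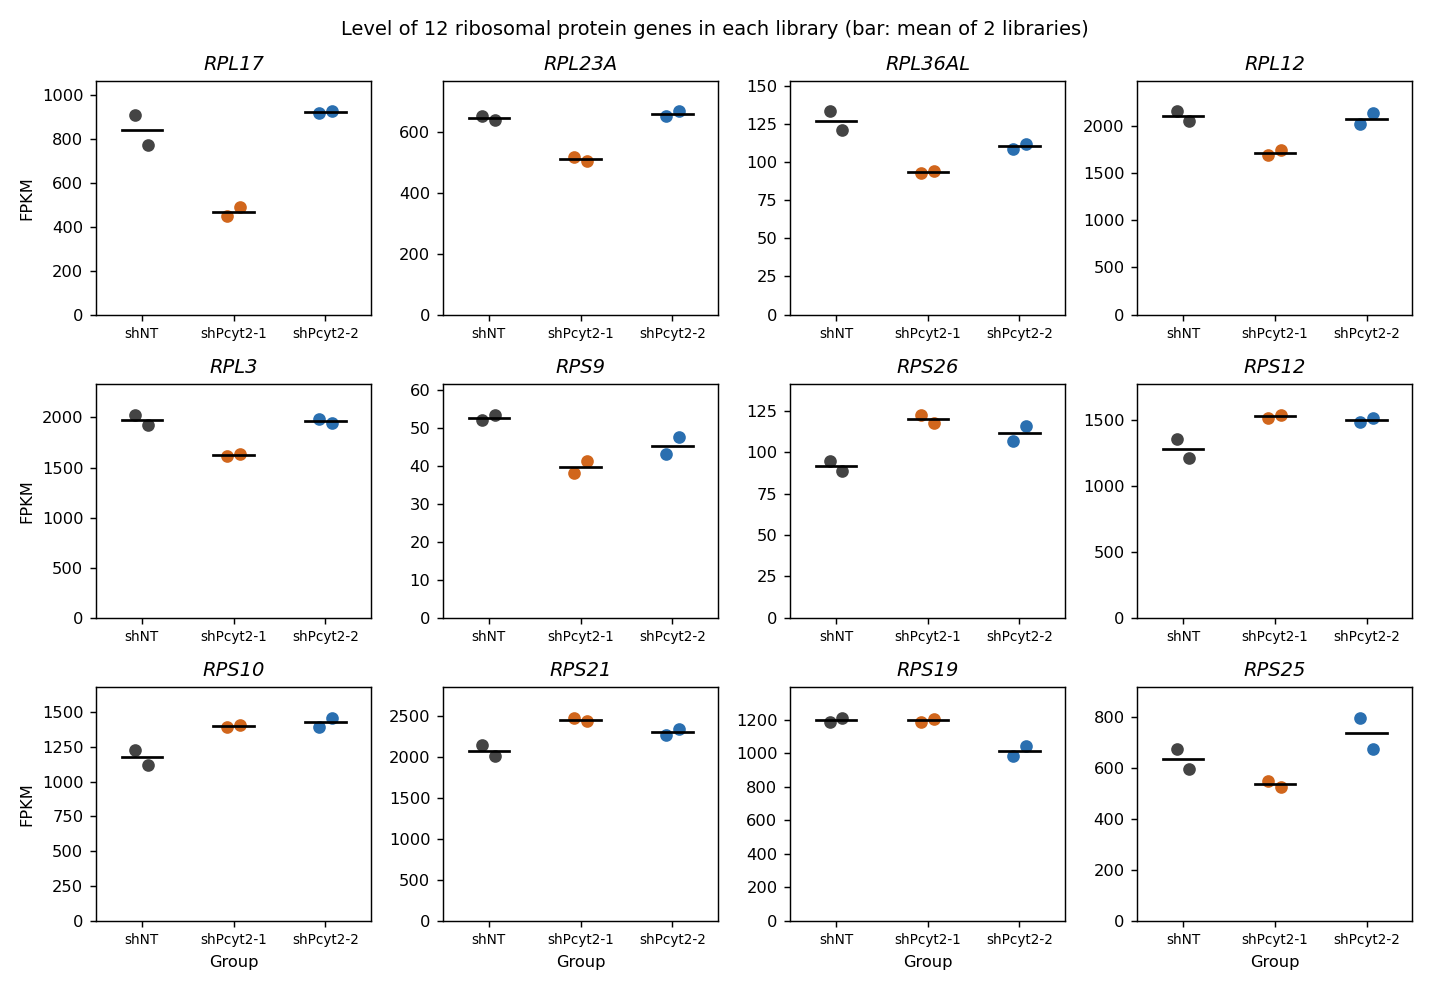
FPKM of 12 ribosomal protein genes in each library on axes that start at 0, with 2 points for each group and the mean as a bar. RPL17, RPL23A, RPL12 and RPL3 are lowest in the 2 shPcyt2-1 libraries, RPS26, RPS12, RPS10 and RPS21 are higher in all 4 knockdown libraries, and RPS19 is lowest in the 2 shPcyt2-2 libraries.

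With shPcyt2-2, 4 of the 78 members rose and 3 fell (8.97% called, against 12.4% of all tested genes, 7.69% higher and 4.74% lower, and 23.7% of the 507 other abundant genes), and all 4 that rose were small subunit genes. The median log2 difference was 0.01 over the large and 0.08 over the small subunit, and 0.04 over all tested genes. With median-ratio scaling the large subunit median was -0.04 and the small subunit median 0.02. RPS26 was 0.28 higher on the log2 scale (SE 0.066, limma adjusted p = 0.0288), RPS10 0.28 higher (SE 0.059, limma adjusted p = 0.0199) and RPS12 0.23 higher (SE 0.062, limma adjusted p = 0.0443). RPSA, the laminin receptor homolog of the small subunit, was at 1229 and 1150 FPKM with shNT, 1218 and 1254 FPKM with shPcyt2-1, and 1328 and 1403 FPKM with shPcyt2-2, a log2 difference of 0.20 from shNT (SE 0.056, limma adjusted p = 0.0491). Its shPcyt2-2 libraries lay above the other 4. The calls of RPSA and RPS12 with shPcyt2-2 were lost with median-ratio scaling and with scaling to genes outside the family. That of RPSA was also lost after correction for GC content and transcript length.

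RPS19, a small subunit gene mutated in Diamond-Blackfan anemia, and RPL8 were among the members that fell with shPcyt2-2. RPS19 was at 1186 and 1212 FPKM with shNT, 1189 and 1204 FPKM with shPcyt2-1, and 984 and 1045 FPKM with shPcyt2-2 (log2 difference -0.24, SE 0.052, limma adjusted p = 0.0214). The shPcyt2-2 libraries were below the other 4. RPL8, a protein near the peptidyl transferase center, was at 2135 and 2187 FPKM with shNT, 1848 and 1932 FPKM with shPcyt2-1, and 1840 and 1913 FPKM with shPcyt2-2. All 4 knockdown libraries were lower, with log2 differences of -0.19 and -0.20 (limma adjusted p = 0.0243 and 0.0348). The shPcyt2-2 call was lost with median-ratio scaling, scaling to genes outside the family, and correction for GC content and transcript length. Over the 16 alternatives that difference ran from -0.26 to -0.087.

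The 2 comparisons with shNT share the shNT libraries. RPS26, RPS12, RPS10 and RPL8 were called in both, and their values for each hairpin are given above. The overlap over all tested genes is not given here, so whether that of the members is more or less than usual cannot be told. With median-ratio scaling 0 members rose and 1 fell with shPcyt2-2. The median of the 78 was higher in shNT replicate 1 than in shNT replicate 2. Without replicate 1, more members rose with shPcyt2-2, and they came from both subunits. Without shNT replicate 2 none passed, and without either shPcyt2-2 library 0 rose. RPS26, RPS10 and RPS19 were lost with shPcyt2-2 without shNT replicate 2 or either shPcyt2-2 library and with median-ratio scaling, and RPS26 and RPS19 also after correction for GC content and transcript length. RPSA, RPS12 and RPL8 passed with shPcyt2-2 when shNT replicate 1 was left out, and were lost without any 1 of the other 5 libraries. The median of the 78 was 0.048 above the shNT mean in shNT replicate 1 and 0.048 below it in replicate 2.

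**Figure D4:**
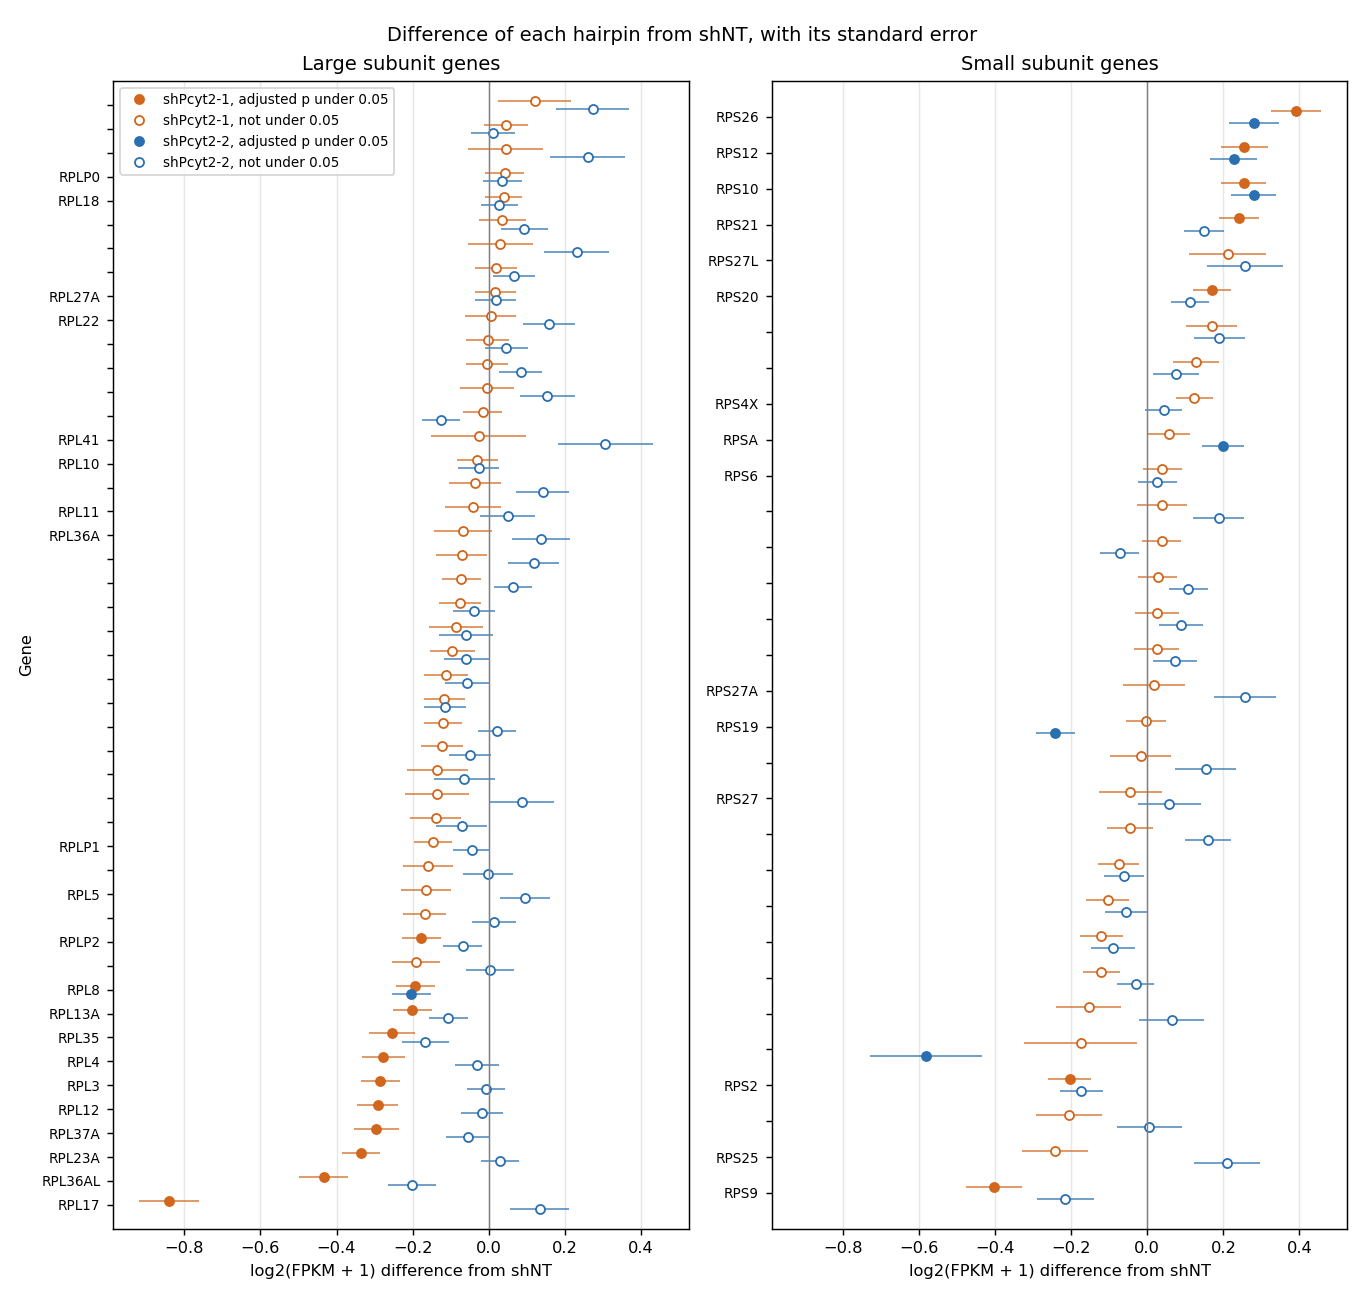
Log2 difference of each of the 78 tested genes from shNT with its standard error, for shPcyt2-1 (orange) and shPcyt2-2 (blue), with large subunit genes at the left and small subunit genes at the right. Filled points have a limma adjusted p under 0.05, symbols are shown for the genes named in the text, and filled points of shPcyt2-1 lie left of 0 for 11 large subunit genes and right of 0 for 5 small subunit genes.

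The hairpins were then compared with each other, in the same fit, so that the shNT libraries entered the standard error and not the difference. Of the 78 members 12 were higher with shPcyt2-2 and 1 was lower (16.7% called, against 27.1% of all tested genes and 38.3% of the 507 other abundant genes). Of the 12, 10 belonged to the large subunit, and the medians were 0.11 over the large and 0.05 over the small subunit, against -0.02 over all tested genes. By direction, 15.4% of members were higher against 12.9% of all genes, and 1.28% lower against 14.2%. RPL17 was 0.97 higher on the log2 scale with shPcyt2-2 (SE 0.078, limma adjusted p = 9.88e-05), RPL23A 0.37 higher (SE 0.050, limma adjusted p = 0.00117), RPL3 0.28 higher (SE 0.050, limma adjusted p = 0.00447) and RPL12 0.27 higher (SE 0.054, limma adjusted p = 0.00638).

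RPS25, a small subunit protein used by viral internal entry sites, was at 675 and 596 FPKM with shNT, 548 and 524 FPKM with shPcyt2-1, and 797 and 674 FPKM with shPcyt2-2. Both shPcyt2-1 libraries were below shNT, the shPcyt2-2 libraries overlapped with shNT, and the hairpins differed by 0.45 on the log2 scale (SE 0.087, limma adjusted p = 0.00577). RPL5, which with RPL11 and 5S RNA binds MDM2, was at 881 and 771.5 FPKM with shNT, 732 and 739 FPKM with shPcyt2-1, and 891 and 870.1 FPKM with shPcyt2-2. Only the difference between the hairpins passed for RPL5 (0.26, SE 0.066, limma adjusted p = 0.0188). RPL11 was between 599 and 705 FPKM, with groups that overlapped and no call in any comparison. RPL36AL was 0.23 higher with shPcyt2-2 than with shPcyt2-1 (SE 0.063, limma adjusted p = 0.0257). RPS19 was the member that was lower, by 0.24 on the log2 scale (SE 0.052, limma adjusted p = 0.0100). Leaving out a shPcyt2-1 or a shPcyt2-2 library lowered the 12 to between 4 and 6, and leaving out a shNT library raised it to 28. RPL17, RPL23A and RPS25 passed without any 1 library, RPL3 was lost without shPcyt2-1 replicate 1, and RPL12 without that library or shPcyt2-2 replicate 2. RPL5 and RPL36AL were lost without any 1 of the 4 knockdown libraries, and RPS19 without 3 of them.

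Taking all 4 knockdown libraries as 1 group, 0 members passed in limma at an adjusted p under 0.05 (0.00784% of all tested genes did, which is 1 gene). At an unadjusted p under 0.05, 7 were higher and 6 lower, which is 13 of 78 against 16.7% of all tested genes. When the 2 hairpins were kept as groups and their mean was compared with shNT, 4 were higher and 10 lower (16.8% of all tested genes were called there, 10.9% higher and 5.85% lower). Over the 3 comparisons of single groups, 26 of the 78 members were called at least once, against 41.9% of all tested genes, and 52 in none. Among those 52 were RPL10, which joins late in subunit assembly and lay between 1103 and 1188 FPKM, RPS4X, between 875 and 978 FPKM, RPS27A, a ubiquitin fusion between 961.5 and 1274 FPKM, and RPL41, the shortest ribosomal protein, between 1060 and 1554 FPKM.

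Features that the rule did not use were set beside these differences. Across all tested genes, the difference from shNT fell with the GC content of the transcripts, with a median of 0.21 in the lowest of 10 equal bins of GC content and -0.17 in the highest bin for shPcyt2-1, and 0.20 and -0.13 for shPcyt2-2. Over the 78 members, Pearson's r between GC content and the log2 difference was -0.13 with shPcyt2-1 and -0.41 with shPcyt2-2, against -0.40 and -0.42 over 12739 genes. These values are descriptions, since the genes share libraries. The correlation with transcript length lay between -0.03 and 0.01 over the members in the 3 comparisons of single groups.

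**Figure D5:**
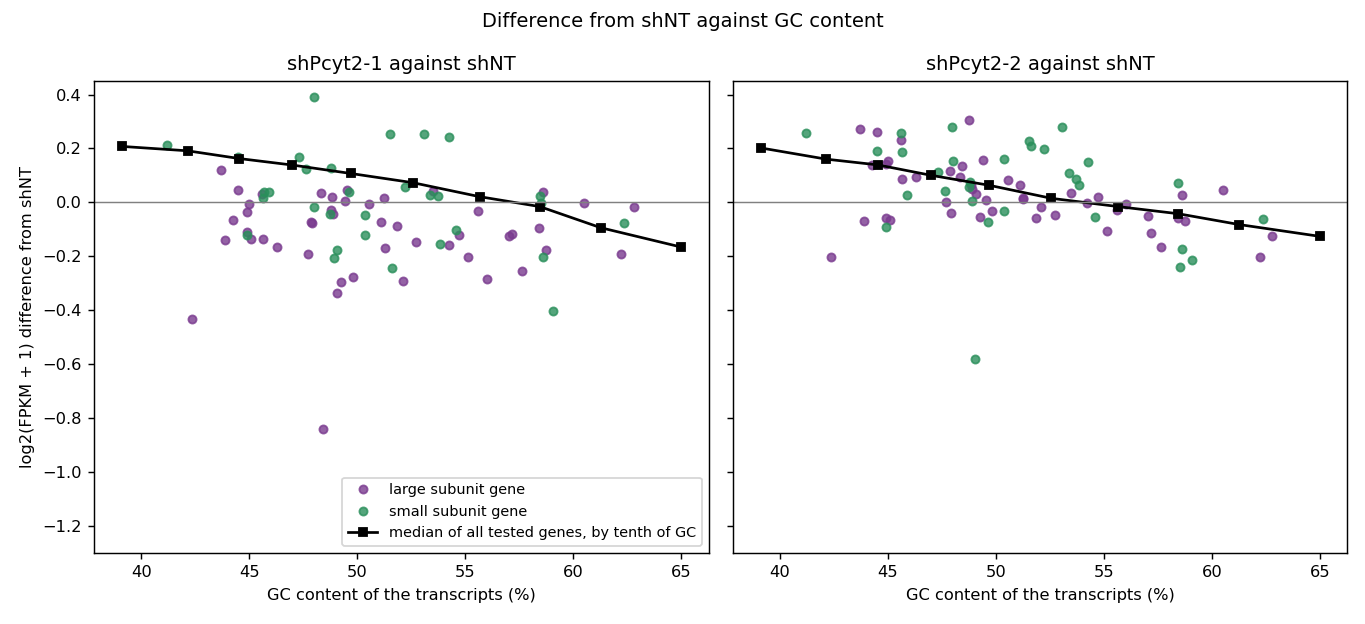
Log2 difference from shNT against the GC content of the transcripts in percent for the 78 members, with the median of all tested genes in 10 bins of GC content as a black line. With shPcyt2-1 most large subunit genes (purple) lie below the line, which falls from 0.21 to -0.17, and with shPcyt2-2 the members lie on both sides of it.

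Of the 78 members, 28 carry a small nucleolar RNA (snoRNA) in an intron or elsewhere within the gene on its strand, 60 snoRNAs in all. With shPcyt2-1, 2 of these 28 rose and 8 fell, with a median of -0.11, and of the 50 others 3 rose and 5 fell, with a median of -0.04. Of the 50 tested members with a TOP tract, 3 rose and 9 fell with shPcyt2-1 (median -0.07), and of the 13 without one 1 rose and 1 fell (median 0.02). Over all tested genes 16.5% rose and 10.1% fell with shPcyt2-1. With shPcyt2-2, 2 of the 28 snoRNA hosts rose and 0 fell (median 0.02), and of the other members 2 rose and 3 fell (median 0.04). Of the members with a TOP tract 3 rose and 1 fell (median 0.02), and of those without one 1 rose and 0 fell (median 0.04). Over all tested genes 7.69% rose and 4.74% fell with shPcyt2-2. These splits were not tested.

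Among 6 related genes outside the symbol rule were further proteins of the ribosome. FAU and RACK1 lay between 879 and 1041 and between 1574 and 1782 FPKM, and neither was called against shNT with either hairpin. RPL22L1, a paralog of RPL22, was at 25.7 and 20.1 FPKM with shNT, 14.7 and 16.8 FPKM with shPcyt2-1, and 25.2 and 26.3 FPKM with shPcyt2-2. It fell with shPcyt2-1 (log2 difference -0.51, limma adjusted p = 0.0133), the 1 call among the 6 genes, and with shPcyt2-2 0 of the 6 were called in limma, while 2 had an unadjusted p under 0.05. Of the 79 proteins of the mitochondrial ribosome, 16 rose and 6 fell with shPcyt2-1 (median 0.08), and 6 rose and 6 fell with shPcyt2-2 (median 0.01). The share called was 27.8% and 15.2%, close to the 26.7% and 12.4% of all tested genes, against which the counts of the lists that follow are also to be read. MRPS6 fell with shPcyt2-1 by 0.77 on the log2 scale (limma adjusted p = 0.000405), and MRPS36 was 0.68 higher (limma adjusted p = 0.0313). MRPS36 was near the floor, at 0.338 and 0.290 FPKM with shNT and 1.62 and 0.686 FPKM with shPcyt2-1. Its shNT mean of 0.314 FPKM was under the limit of 0.5, so it entered the tests only through the knockdown libraries. Its call is therefore no support for a rise.

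Of 15 translation genes of this class, 1 rose and 2 fell with shPcyt2-1 (median 0.02), and 0 rose and 1 fell with shPcyt2-2 (median 0.01). EEF2, the factor that moves the ribosome along the message, was at 1073 and 1155 FPKM with shNT, 911 and 964 FPKM with shPcyt2-1, and 468.5 and 496 FPKM with shPcyt2-2. The groups did not overlap, and in limma EEF2 had a log2 difference from shNT of -0.25 for the first hairpin (adjusted p = 0.0174) and of -1.21 for the second (adjusted p = 5.02e-05). EEF1D, a subunit of the exchange factor of EEF1A, was at 188 and 223 FPKM with shNT, 120.1 and 119 FPKM with shPcyt2-1, and 170.1 and 180.5 FPKM with shPcyt2-2, and fell with shPcyt2-1 by 0.77 on the log2 scale (limma adjusted p = 0.00076). HNRNPA1 rose with shPcyt2-1 (0.29, limma adjusted p = 0.0246).

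Of 50 ribosome biogenesis genes, 7 rose and 2 fell with shPcyt2-1 (median 0.07), and 4 rose and 1 fell with shPcyt2-2 (median 0.08). With shPcyt2-1, NIP7, a 60S assembly factor, rose by 0.42 on the log2 scale (limma adjusted p = 0.00482), while NCL, which encodes nucleolin, fell by 0.40 (limma adjusted p = 0.00383) and BMS1, a GTPase of 40S assembly, fell by 0.50 (limma adjusted p = 0.00491). Of 8 snoRNA host genes without a ribosomal protein, 3 rose and 0 fell with shPcyt2-1 (median 0.19), and 1 rose and 1 fell with shPcyt2-2 (median -0.02). SNHG16 rose with each hairpin, by 0.58 for shPcyt2-1 (limma adjusted p = 0.0133) and by 0.67 for shPcyt2-2 (adjusted p = 0.0155 in limma).

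Of 16 regulators of ribosomal protein genes, 4 rose and 0 fell with shPcyt2-1 (median 0.19), and 1 rose and 1 fell with shPcyt2-2 (median 0.04). LARP1, which binds TOP messages, was at 55.1 and 57.3 FPKM with shNT, 65.4 and 67.2 FPKM with shPcyt2-1, and 42.3 and 39.8 FPKM with shPcyt2-2. It was thus higher with the first hairpin (0.23, limma adjusted p = 0.0272) and lower with the second (-0.44, limma adjusted p = 0.00587), and the hairpins differed by -0.68 (limma adjusted p = 0.000246). GABPB1, a subunit of the GABP factor, rose with shPcyt2-1 by 0.60 (limma adjusted p = 0.00551). EIF4E, the cap-binding protein, rose with shPcyt2-2 by 0.47 (limma adjusted p = 0.0276). Of 12 tested p53 targets, which respond when free ribosomal proteins bind MDM2 in cells with an intact p53, 1 rose and 1 fell with shPcyt2-1 (median -0.11), and 2 rose and 1 fell with shPcyt2-2 (median 0.22). SESN2 rose with each hairpin, by 0.43 for shPcyt2-1 (limma adjusted p = 0.0117) and by 0.36 for shPcyt2-2 (adjusted p = 0.0392 in limma). BBC3 fell with shPcyt2-1 by 0.65 (limma adjusted p = 0.00339).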

How the data were processed

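RNA was extracted with TRIzol from SW480 cells carrying shNT, shPcyt2-1 or shPcyt2-2, and libraries were made and sequenced by Novogene. Of the 2 library kits in the labels, neither is tied to particular libraries. The deposited tables hold FPKM for each gene, made by the authors, 1 table for each of 6 libraries. The submitters' processing notes name GRCm38, mm10 and GRCh38 without a role, and the counter is not given in the sources used here. The study's methods name a count package, but the tables hold FPKM, so limma was used. Read depth is unknown, since FPKM keep no counts, and no interval for counting error is given.

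For 115 repeated identifiers the rows were added up, and identifiers that carried the same values in all libraries (1045 groups) were merged into 1 gene each. This left 19655 genes, 19431 of which matched GENCODE release 29, the source of gene coordinates, transcript length and GC content. Genes with a mean of at least 0.5 FPKM (12756) were fitted as log2(FPKM + 1), a scale that understates the change of low genes, with limma 3.58.1 in R 4.3.3 with a mean-variance trend. One fit with 3 groups gave the 3 comparisons of single groups, and a fit with 2 groups took the knockdown libraries together. Tests were two-sided, with Benjamini-Hochberg adjustment over all tested genes and a threshold of 0.05. With 2 libraries against 2, an exact permutation test cannot go below 0.333, so none is given. The scripts were tested on simulated data, with changes set in genes drawn from all tested genes. In each comparison of 1 hairpin with shNT, 1.52% of changes of 0.25 on the log2 scale were recovered. Of changes of 0.5, 23.9% were recovered with shPcyt2-1 and 25.4% with shPcyt2-2, and of changes of 1, 91.0% and 88.1%. A missing call is thus no sign that a gene did not change. Figures were drawn in Python 3.11.15 with matplotlib 3.10.9.

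Named genes were PCYT2, a list chosen for known roles, the 5 members with the highest shNT mean and, in each comparison, up to 5 higher and 5 lower members with the largest log2 difference that passed and whose libraries did not overlap. Of each related list, up to 2 in each direction were named by the same rule. RPL35, RPL4, RPS27, RPL36A, RPL27A, RPL18, RPL13AP5, FAU and RACK1 were named outside this rule where the text needed them, after their values were seen. Some genes that the rule gave are not reported here. The members and all lists were chosen with earlier results of these data known. Alternatives were the pseudocount (0.1), the limit on the mean (none, 5), a replicate block, median-ratio scaling, scaling to genes outside the family, correction for GC content and transcript length, no variance trend, the highest of repeated rows and each library left out in turn.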

Additional observations from a re-analysis of the deposited data

Results flagged for a closer look

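In 1 of 32 ribosomal protein genes tested for it, 1 knockdown library stood apart from the other 3, and chance gives about 1 in 20. For RPS6, shPcyt2-1 replicate 2 had 1021 FPKM, and its distance to the next library was 0.854 of the whole range, past Dixon's critical value. The 4 values spanned 1002 to 1021 FPKM.

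The hairpins differed from each other in limma's test of that difference for 13 members, 12 higher and 1 lower. The 5 largest of the 12 and the 1 lower are given here. With shPcyt2-2 minus shPcyt2-1, the log2 difference was 0.97 for RPL17, 0.45 for RPS25, 0.37 for RPL23A, 0.28 for RPL3, 0.27 for RPL12 and -0.24 for RPS19, with adjusted p from 9.88e-05 to 0.0100. RPS25 shares its values with another identifier, so that its level is uncertain.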

How the results depend on the processing

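Among the named calls of members in single comparisons, 6 passed under all 16 alternatives, those of RPL17 and RPL23A (with shPcyt2-1 and between the hairpins) and those of RPL36AL and RPS26 with shPcyt2-1. None of the named calls changed sign under the alternatives that were run. Counts are given as members higher and lower. With shPcyt2-1 (5 and 13, median -0.06), they were 1 and 5 with no limit on the mean, 1 and 10 with median-ratio scaling (median -0.14), 3 and 21 after correction for GC content and length (median -0.11) and 1 and 8 with no variance trend. Without 1 library each they ran from 1 to 12 and from 3 to 16, and the median from -0.13 to -0.0066. With shPcyt2-2 (4 and 3, median 0.03), they were 0 and 0 with no limit on the mean and with no variance trend, and 0 and 1 with median-ratio scaling (median -0.022). With shPcyt2-2, 2 were higher when libraries were scaled to genes outside the family or corrected for GC content and length. Without 1 library each they ran from 0 to 21 and from 0 to 2, and the median from 0.00038 to 0.07. Between the hairpins (12 and 1, median 0.09), they were 2 and 0 with no limit on the mean, 5 and 0 with no variance trend, and 30 higher after correction for GC content and length (median 0.14). After that correction 38.5% of the members were higher with shPcyt2-2, against 18.2% of all tested genes, and 37.1% of all tested genes were called. Between the hairpins, 2 members were lower with a mean of at least 5 FPKM and 0 with median-ratio scaling, and the median was 0.13 with scaling to genes outside the family. Without 1 library each they ran from 4 to 28 and from 0 to 1, and the median from 0.05 to 0.12. With the 4 knockdown libraries as 1 group (0 and 0), the mean of the hairpins from the fit with 3 groups gave 4 and 10, and the median was -0.084 with median-ratio scaling and from -0.070 to 0.027 without 1 library each. The family's share with the 100 most abundant other genes left out of the total was 27.6%, 26.2% and 27.7% in shNT, shPcyt2-1 and shPcyt2-2. With all genes in the total and without 1 library each, the share ran from 21.7% to 23.0%, from 21.1% to 21.3% and from 22.3% to 23.2%. The ratios of the subunit sums without RPL17 or the 5 most abundant members were chosen after seeing the data. The cause of these shifts was not tested. Where an arm was left with 1 library, that library was assumed to vary like the others, and the unknown depth limits what can be said of single genes.

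Same-numbered libraries were not taken as pairs, since the labels name nothing they share and the correlations of their deviations over all genes were 0.0027, 0.0619 and 0.191. Over the members alone these were 0.525, 0.128 and 0.142. With the replicate block, 7 members were higher with shPcyt2-2, 1 of them of the large subunit. With the replicate block and correction for GC content and length, 2 were higher with shPcyt2-1 (median -0.11), 1 with shPcyt2-2 and 23 between the hairpins (median 0.14).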
